A study of Saccharomyces cerevisiae with 4 samples.

Results

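The nuclear genes of the mitochondrial respiratory chain and of the ATP synthase were followed in budding yeast strains that lack one of the Sir silencing proteins. The set held 41 genes of the 5449 Saccharomyces cerevisiae genes measured, chosen by name as structural subunits of respiratory complexes II, III and IV and of the ATP synthase, together with cytochrome c and the rotenone-insensitive NADH dehydrogenases. All 41 were measured, each by 1 probe set of the class specific to a single gene, and all 41 lay above background on all 4 arrays. The groups were 4 complex II genes, 9 complex III genes, 2 cytochrome c genes, 9 complex IV genes, 14 ATP synthase genes and 3 NADH dehydrogenase genes. The ATP synthase genes were divided into 5 of the catalytic F1 head and 9 of the membrane sector and stalk, F0.

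Total RNA from 4 strains was hybridised to Affymetrix expression arrays, with 1 array each for the SIR2 deletion, the SIR3 deletion, the SIR4 deletion and the wild type BY4742. BY4742 is a haploid laboratory strain of mating type alpha, and each deletion was made by homologous recombination with a KanMX cassette, which the wild type lacks by its label. The labels name the BY4742 background for the wild type alone and do not say how many clones were examined. All cultures were grown at 30 °C in the glucose medium YPD to an optical density of 0.7. With 1 array per strain there was no replicate, so nothing could be tested and the differences carry no error estimate. An effect of the KanMX cassette cannot be told apart from an effect of a missing Sir protein in the comparisons with wild type.

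In the respiratory chain, electrons from NADH and succinate pass through ubiquinone, complex III, cytochrome c and complex IV to oxygen, and the proton gradient so formed drives the ATP synthase. Budding yeast has no proton-pumping complex I, and single-polypeptide NADH dehydrogenases take its place. Many of the nuclear genes of the chain are repressed by glucose and are activated through the HAP complex, whose regulated subunit is Hap4. Subunits COX5A and COX5B, and the cytochrome c genes CYC1 and CYC7, are pairs of alternative isoforms, of which COX5B and CYC7 are known as hypoxic forms.

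Each array was checked through its deleted gene. SIR2 stood at 3.68 in the SIR2 deletion, SIR3 at 4.51 in the SIR3 deletion and SIR4 at 3.05 in the SIR4 deletion, against wild-type levels of 9.96, 9.32 and 9.98 for the same genes. Values are log2 levels after RMA, on which 1 unit is a 2-fold difference, and background levels lay between 4.28 and 4.39. A call, higher or lower, needed a difference of 2-fold or more. All differences were computed before rounding.

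As a set, the respiratory genes were slightly higher in every deletion than in wild type. The median level of the 41 genes was 11.86 in the SIR2, 12.13 in the SIR3 and 12.09 in the SIR4 deletion, against 11.72 in wild type. The median difference from wild type was 0.25 in the SIR2 deletion, where the median of all genes was 0.00. It was 0.42 in the SIR3 deletion, against -0.01 for all genes, and 0.28 in the SIR4 deletion, against 0.03 for all genes. The direction was shared by nearly all members. The number above wild type was 36 of 41 in the SIR2, 40 of 41 in the SIR3 and 39 of 41 in the SIR4 deletion, while 49.5%, 48.3% and 58.1% of all genes were above wild type in the same 3 deletions. Because the 3 comparisons use the same wild-type array, their directions are not independent of each other.

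**Figure D1:**
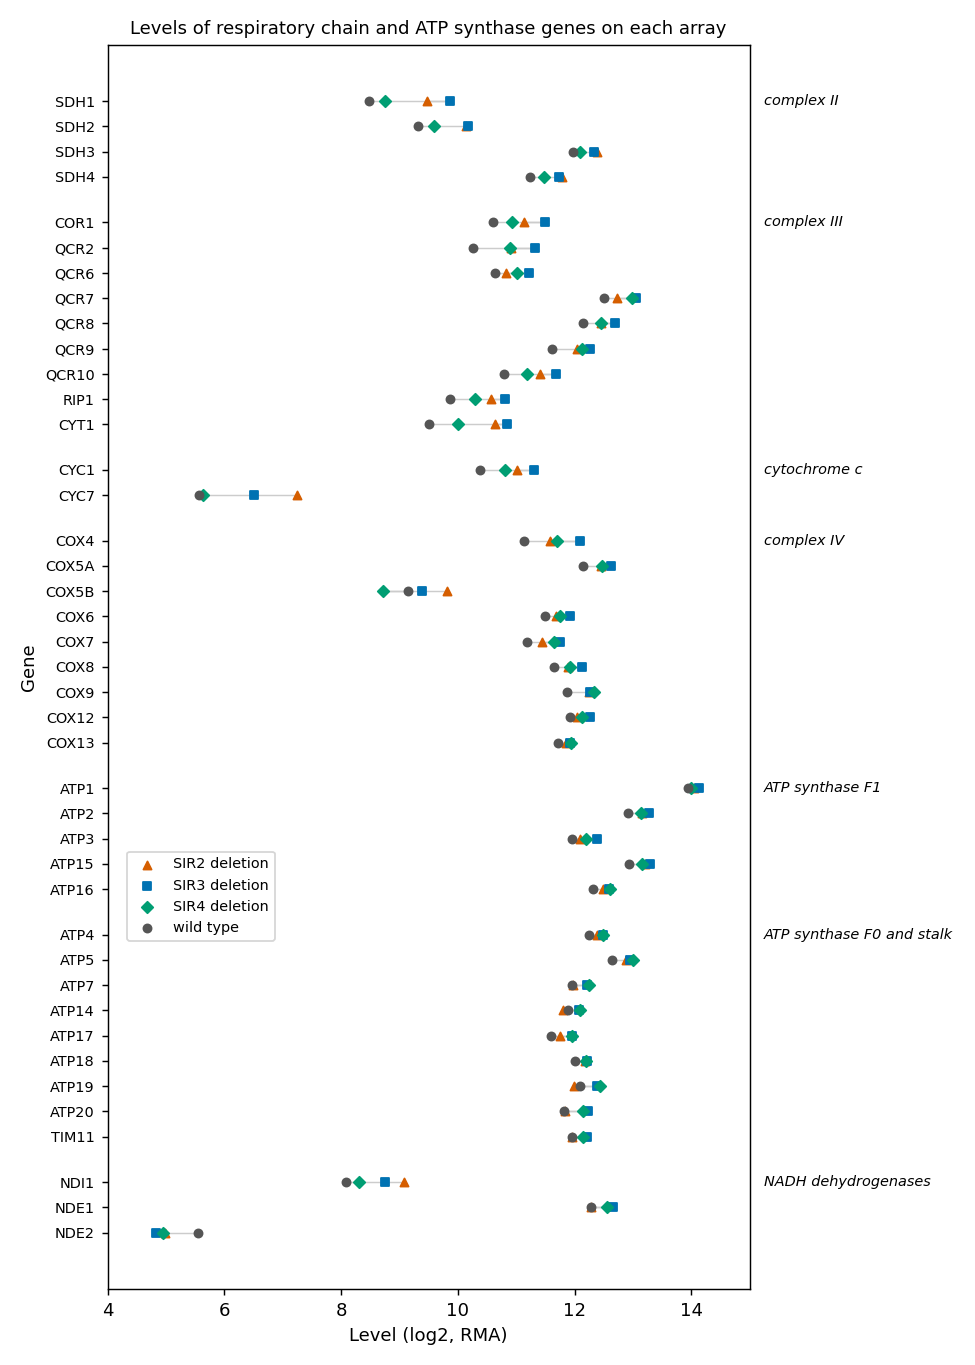
Level of each of the 41 genes on each array, in log2 units after RMA, with 1 symbol per strain (triangle, SIR2 deletion; square, SIR3 deletion; diamond, SIR4 deletion; circle, wild type). The wild-type symbol is the leftmost for 35 of the 41 genes, and NDE2 at the bottom is the gene for which it is the rightmost.

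Few single genes reached a 2-fold difference. In the SIR2 deletion 3 of 41 were called higher, CYC7, CYT1 and SDH1, against 1.45% of all genes, and none was called lower, against 1.41%. In the SIR3 deletion 3 of 41 were called higher, SDH1, CYT1 and QCR2, against 0.734% of all genes, and none lower, against 1.67%. In the SIR4 deletion no member was called in either direction, where 0.349% of all genes were higher and 1.1% lower. SDH1 and CYT1 were thus called in both the SIR2 and the SIR3 deletion, 2 of 41 against 0.496% of all genes. No member was called with the SIR4 deletion as one of a pair, where 0.294% of all genes were higher in it and the SIR2 deletion and 0.22% in it and the SIR3 deletion. No member was called in all 3 deletions, whereas 0.22% of all genes were called higher and 0.771% lower in all 3. NDI1 at 0.99 in the SIR2 deletion, and COX4 at 0.96 and CYC7 at 0.95 in the SIR3 deletion, lay just under the limit of 1.

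A limit of 1.5-fold took in more members than 2-fold did, though most differences were below it too. In the deletions of SIR2, SIR3 and SIR4, 31, 27 and 39 of 41 members passed 1.5-fold in neither direction. Among all 5449 genes, 4878, 5095 and 5258 did not. At that limit 10 of 41 members were higher in the SIR2 deletion, against 5.41% of all genes, and none was lower, against 5.07%. In the SIR3 deletion 13 of 41 were higher, against 2.72%. In the SIR4 deletion QCR2 alone was higher at 1.5-fold, 1 of 41, against 1.41% of all genes. NDE2 was lower at 1.5-fold in the SIR3 deletion, 1 of 41 against 3.78% of all genes, and likewise in the SIR4 deletion, 1 of 41 against 2.09%. QCR2 was also the 1 member higher at 1.5-fold in all 3 deletions, against 0.624% of all genes. At a limit of 3-fold, CYC7 in the SIR2 deletion was the 1 of 41 members higher than wild type, against 0.514% of all genes. None was higher than wild type at that limit where SIR3 or SIR4 was deleted, against 0.275% and 0.147%.

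The order of the 4 arrays within each gene showed the pattern more plainly than the 2-fold calls. Wild type had the lowest of the 4 levels for 35 of 41 members, against 24.8% of all genes. The SIR3 deletion had the highest level for 26 of 41 members, against 18% of all genes. The SIR4 deletion was highest for 9 members, the SIR2 deletion for 5 and wild type for 1, NDE2. Among all genes the SIR2 and SIR4 deletions were each highest for 30.6%.

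**Figure D2:**
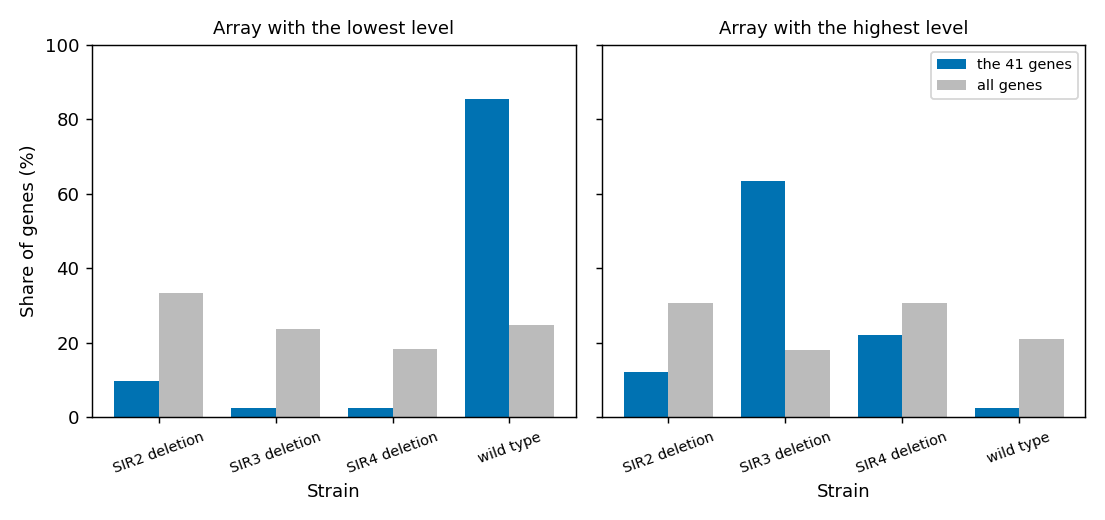
Share of genes, in percent, for which each strain had the lowest (left) or the highest (right) of the 4 levels, for the 41 respiratory genes and for all 5449 genes. Wild type was lowest for 85.4% of the respiratory genes and 24.8% of all genes, and the SIR3 deletion was highest for 63.4% and 18%.

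Complex II, succinate dehydrogenase, links the citric acid cycle to the chain. Its flavoprotein SDH1 (YKL148C), which oxidises succinate, had levels of 9.48, 9.87 and 8.75 in the deletions of SIR2, SIR3 and SIR4, against 8.47 in wild type. The iron-sulfur subunit SDH2 had 10.14, 10.17 and 9.60 in the same deletions, against 9.32 in wild type. Both genes were therefore well above wild type in the SIR2 and SIR3 deletions and close to it in the SIR4 deletion. SDH1 was called higher in the first and second of these, by 1.02 and 1.40, and its difference in the SIR4 deletion was 0.28. SDH2 differed by 0.82, 0.85 and 0.28.

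The membrane anchor subunits of complex II differed less. SDH3 had 12.38, 12.33 and 12.09 in the deletions of SIR2, SIR3 and SIR4, against 11.97 in wild type, and SDH4 had 11.79, 11.73 and 11.48, against 11.24. The differences were 0.41, 0.36 and 0.12 for SDH3 and 0.55, 0.48 and 0.23 for SDH4. Over the 4 genes the median difference was 0.68 in the SIR2, 0.67 in the SIR3 and 0.25 in the SIR4 deletion, and each gene was above wild type in each deletion.

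Complex III is the cytochrome bc1 complex. All 9 of its genes were lowest in wild type, against 24.8% of all genes, and highest in the SIR3 deletion, against 18%. The median difference was 0.52 in the SIR2, 0.88 in the SIR3 and 0.42 in the SIR4 deletion, with the 9 genes between 0.55 and 1.33 in the SIR3 deletion. At 1.5-fold, 4 of the 9 were higher in the SIR2, 7 in the SIR3 and 1 in the SIR4 deletion, beside 5.41%, 2.72% and 1.41% of all genes.

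Among the electron-carrying subunits of complex III, cytochrome c1, encoded by CYT1 (YOR065W), had levels of 10.63 in the SIR2 deletion and 10.84 in the SIR3 deletion, against 9.50 in wild type, and was called higher in both. It was 2.18-fold and 2.52-fold higher there, and 1.41-fold higher with SIR4 deleted. RIP1, the Rieske iron-sulfur protein, had 10.57, 10.81 and 10.30, against 9.87 in wild type. Its differences of 0.69, 0.94 and 0.42 followed the same order of strains without reaching the limit.

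The core proteins COR1 and QCR2, which form the matrix-facing part of the complex, were also above wild type. QCR2 (YPR191W) had levels of 10.91, 11.32 and 10.90 in the deletions of SIR2, SIR3 and SIR4, against 10.26 in wild type, and was called in the SIR3 deletion at 1.07. Its differences in the SIR2 and SIR4 deletions, 0.65 and 0.64, were nearly equal. COR1 had 11.13, 11.49 and 10.92, against 10.61 in wild type, or differences of 0.52, 0.88 and 0.32. The small subunits QCR6, QCR7, QCR8, QCR9 and QCR10 lay between 0.20 and 0.62 in the SIR2 deletion, between 0.55 and 0.91 in the SIR3 deletion and between 0.30 and 0.50 in the SIR4 deletion. Of these QCR10 was the farthest above wild type in the SIR3 deletion, with 11.69 there against 10.79 in wild type.

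Cytochrome c carries electrons from complex III to complex IV, and its genes behaved differently in the 3 deletions. CYC1 (YJR048W), the main aerobic isoform, had levels of 11.01, 11.30 and 10.81 in the deletions of SIR2, SIR3 and SIR4, against 10.38 in wild type. Its differences of 0.62, 0.92 and 0.42 were ordered like those of complex III. CYC7 (YEL039C), the hypoxic isoform, had 7.24, 6.51 and 5.63, against 5.56 in wild type. CYC7 was thus highest in the SIR2 deletion, at 3.19-fold, and was the farthest above wild type of all members there. It was 0.95 above wild type with SIR3 deleted and 0.06 above it with SIR4 deleted. The CYC7 levels in wild type and the SIR4 deletion were close to background, which lay at 4.29 and 4.28 there. Its differences were thus measured on a dim probe set.

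Complex IV, cytochrome c oxidase, transfers the electrons to oxygen. Its catalytic core is encoded in the mitochondrial genome and was not analysed here, and the 9 genes of this group encode nuclear subunits that surround the core. The median difference was 0.26 in the SIR2, 0.43 in the SIR3 and 0.28 in the SIR4 deletion. No gene of the complex was called, where 1.45%, 0.734% and 0.349% of all genes were called higher and 1.41%, 1.67% and 1.1% lower. COX4, a subunit needed for assembly of the complex, had levels of 11.58, 12.09 and 11.70 in the deletions of SIR2, SIR3 and SIR4, against 11.14 in wild type. Its difference of 0.96 in the SIR3 deletion was the largest of the complex in that strain, where the other 8 genes lay between 0.20 and 0.56.

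The isoforms of subunit 5 did not share a pattern. COX5A (YNL052W), the aerobic isoform, had levels of 12.45, 12.63 and 12.47 in the deletions of SIR2, SIR3 and SIR4, against 12.15 in wild type. Its differences were 0.30, 0.47 and 0.32. COX5B (YIL111W), the hypoxic isoform, had 9.82, 9.39 and 8.71, against 9.14 in wild type, or differences of 0.68, 0.25 and -0.43. COX5B was therefore highest in the SIR2 deletion and, as the 1 gene of complex IV below wild type in any deletion, lowest in the SIR4 deletion. COX6, COX7, COX8, COX9, COX12 and COX13 lay between 0.12 and 0.36 above wild type in the SIR2 deletion, between 0.20 and 0.56 in the SIR3 deletion and between 0.19 and 0.46 in the SIR4 deletion. COX12 and COX13 had the smallest mean differences of these, at 0.21 and 0.18.

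**Figure D3:**
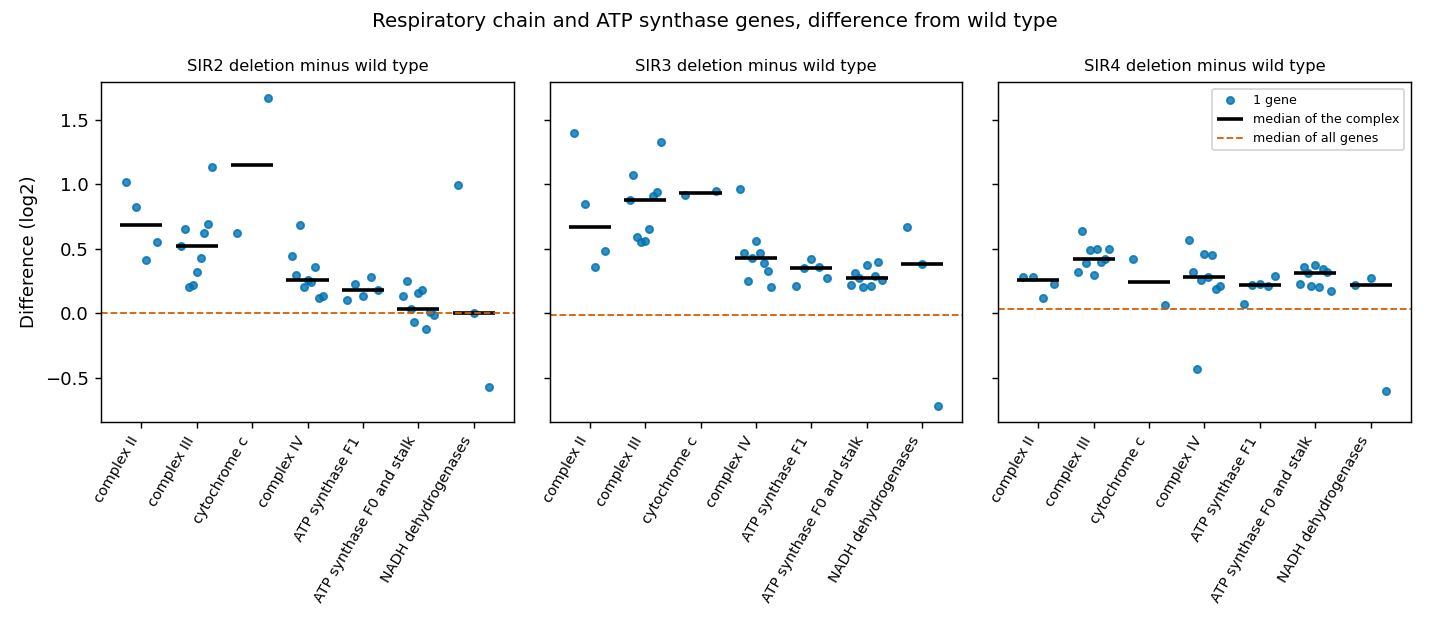
Difference from wild type in log2 units for each gene, by complex, in the SIR2 deletion (left), the SIR3 deletion (middle) and the SIR4 deletion (right). Points are genes, black bars are medians of a complex and the dashed line is the median of all genes, and in the SIR2 deletion complex II has a median of 0.68 and the F0 sector one of 0.03.

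None of the 14 ATP synthase genes was called or reached 1.5-fold in any deletion. Of all genes, 1.45%, 0.734% and 0.349% were called higher in the deletions of SIR2, SIR3 and SIR4, and 1.41%, 1.67% and 1.1% lower. At 1.5-fold 5.41%, 2.72% and 1.41% were higher and 5.07%, 3.78% and 2.09% lower. With 14 genes, the absence of calls is near these shares. All 14 were above wild type in the SIR3 deletion, with a median of 0.28, and all 14 in the SIR4 deletion, with a median of 0.23. In the SIR2 deletion the median was 0.13 and 11 of 14 were above wild type. The F1 head and the F0 sector differed in this. In the SIR2 deletion the 5 F1 genes had a median of 0.18 and were all above wild type, and the 9 F0 genes had a median of 0.03, with 6 above wild type.

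In F1, the catalytic beta subunit gene ATP2 had levels of 13.15, 13.27 and 13.14 in the deletions of SIR2, SIR3 and SIR4, against 12.92 in wild type. ATP1, the alpha subunit, had 14.04, 14.14 and 14.00, against 13.94. The gamma subunit ATP3, part of the rotating central stalk, had 12.09, 12.38 and 12.19, against 11.96, and its 0.42 in the SIR3 deletion was the largest ATP synthase difference in any strain. The central stalk genes ATP15 and ATP16 lay between 0.18 and 0.36 above wild type in the 3 deletions.

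In the F0 sector and peripheral stalk, ATP19, which encodes a small membrane subunit, had levels of 11.99, 12.39 and 12.44 in the deletions of SIR2, SIR3 and SIR4, against 12.10 in wild type. ATP14, of the peripheral stalk, had 11.81, 12.08 and 12.09, against 11.88. For both genes the SIR2 deletion was the lowest array, by 0.12 and 0.07 under wild type, while the SIR3 and SIR4 deletions stood above it. TIM11, the e subunit that supports dimers of the enzyme, had 11.96 in the SIR2 deletion and 11.96 in wild type, with 12.22 and 12.14 in the SIR3 and SIR4 deletions. ATP5, the stalk subunit that confers oligomycin sensitivity, had 12.88, 12.95 and 13.00, against 12.64, and was the F0 gene farthest above wild type on average. ATP4, ATP7, ATP17, ATP18 and ATP20 lay between 0.01 and 0.18 above wild type in the SIR2 deletion, between 0.21 and 0.40 in the SIR3 deletion and between 0.20 and 0.37 in the SIR4 deletion.

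The 3 NADH dehydrogenase genes each had a pattern of their own. NDI1 (YML120C), which oxidises NADH of the matrix, had levels of 9.08, 8.75 and 8.31 in the deletions of SIR2, SIR3 and SIR4, against 8.08 in wild type. Its difference was therefore largest in the SIR2 deletion, at 1.99-fold, as for CYC7 and COX5B. NDE1 (YMR145C), the main external enzyme for cytosolic NADH, had 12.28, 12.66 and 12.56, against 12.28 in wild type, and so matched wild type in the SIR2 deletion.

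NDE2 (YDL085W), the second external enzyme, was the 1 member below wild type in all 3 deletions, against 20.9% of all genes. Its levels were 4.98, 4.83 and 4.95 in the deletions of SIR2, SIR3 and SIR4, against 5.55 in wild type. These are close to the background levels of 4.32, 4.39, 4.28 and 4.29 on the same arrays, in the same order. The differences of -0.57, -0.72 and -0.60 were thus measured on a dim probe set, and the SIR2 and SIR3 values were -0.46 and -0.54 after the quantile normalization was repeated over the yeast probe sets alone.

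The complexes stood in a different order in each deletion. In the SIR2 deletion the medians of the 5 larger groups were 0.68 for complex II, 0.52 for complex III, 0.26 for complex IV, 0.18 for F1 and 0.03 for F0. The 2 cytochrome c genes had a higher median of 1.15, and the 3 NADH dehydrogenase genes one below that of F0. In the SIR3 deletion complex III came first of these 5 groups at 0.88, with the cytochrome c genes at 0.93. Complex II followed at 0.67, complex IV at 0.43, F1 at 0.35 and F0 at 0.27. In the SIR4 deletion the medians of these 5 groups lay closer together, between 0.22 for F1 and 0.42 for complex III, and F0 at 0.31 was above complex II at 0.25. The spread over the 41 genes was correspondingly narrower in the SIR4 deletion, from -0.60 to 0.64, than in the SIR2 deletion, from -0.57 to 1.67, or the SIR3 deletion, from -0.72 to 1.40. This was not particular to the set. Among all genes too, fewer passed 1.5-fold in the SIR4 deletion, with 1.41% higher and 2.09% lower. The shares were 5.41% and 5.07% in the SIR2 deletion and 2.72% and 3.78% in the SIR3 deletion.

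Members with dimmer probe sets in wild type had larger median differences in the SIR2 and SIR3 deletions. NDE2, the dimmest in wild type at 5.55, went the other way and was below wild type in all 3 deletions. The 13 members with a wild-type level under 11 had medians of 0.68, 0.91 and 0.32 in the deletions of SIR2, SIR3 and SIR4, and the 28 members at 11 or more had 0.19, 0.37 and 0.28. Every 2-fold call fell among the 13. Over all genes, 6.66% of those above background and under 11 were higher at 1.5-fold in the SIR2 deletion and 2.49% of those at 11 or more, and the corresponding shares were 3.46% and 0.829% in the SIR3 deletion and 1.73% and 0.415% in the SIR4 deletion. Most ATP synthase and complex IV probe sets are among the bright ones, and the part of brightness in the order of the complexes was not tested. The limit of 11 was chosen after the values were seen. The same wild-type level sets the split and is subtracted in each difference. A low wild-type value by itself therefore raises a difference, and the split and the differences are not independent.

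The deletions were next set against each other, which leaves out the wild-type array and the difference in KanMX. Compared with the SIR3 deletion, the SIR2 deletion had a median of -0.22 over the 41 genes and 6 of 41 were higher in it, against 51.2% of all genes. No member differed 2-fold, where 0.807% of all genes were higher and 0.239% lower in the SIR2 deletion. At 1.5-fold CYC7 was higher, 1 of 41 against 3.32% of all genes, and no member lower, against 1.43%. None was higher at 3-fold, against 0.165%. The 6 genes higher in the SIR2 deletion were CYC7 at 0.73, COX5B at 0.43, NDI1 at 0.33, NDE2 at 0.15, SDH4 at 0.06 and SDH3 at 0.05. All 9 complex III genes and all 14 ATP synthase genes were lower in the SIR2 deletion than in the SIR3 deletion, by medians of -0.29 and -0.17. COX4 was the farthest, at -0.51.

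Between the SIR2 and SIR4 deletions, complex II and F0 differed in opposite directions. Complex III, complex IV, F1 and the NADH dehydrogenases each had genes on both sides. The median over all 41 was -0.04, and 18 of 41 were higher in the SIR2 deletion, against 44.8% of all genes, a share near the background. Complex II had a median of 0.43 with all 4 genes higher in the SIR2 deletion, while F0 had a median of -0.22 with all 9 genes lower. CYC7 at 1.61 and COX5B at 1.11 were called higher in the SIR2 deletion, 2 of 41 against 1.16% of all genes, and no member was called lower, against 0.496%. NDI1 at 0.77, SDH1 at 0.74 and CYT1 at 0.63 followed, which made 5 of 41 higher at 1.5-fold against 4.48% of all genes. CYC7 also passed 3-fold, 1 of 41 against 0.257%. None was lower at 1.5-fold, against 3.93%, and ATP19 was the lowest at -0.46.

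The SIR3 deletion was above the SIR4 deletion for 31 of 41 members, against 43.5% of all genes, with a median of 0.15. SDH1, at 9.87 with SIR3 deleted and 8.75 with SIR4 deleted, was called higher by 1.12, which made 1 of 41 against 0.496% of all genes. No member was called lower, where 0.771% of all genes were. At 1.5-fold SDH1, CYC7, CYT1 and COX5B were higher, 4 of 41 against 2.11% of all genes, and none was lower, against 3.16%. None was higher at 3-fold, against 0.0918%. All 9 complex III genes were above the SIR4 deletion, with a median of 0.42 and CYT1 at 0.84. The 9 F0 genes did not separate these strains, with differences between -0.05 and 0.09.

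**Figure D4:**
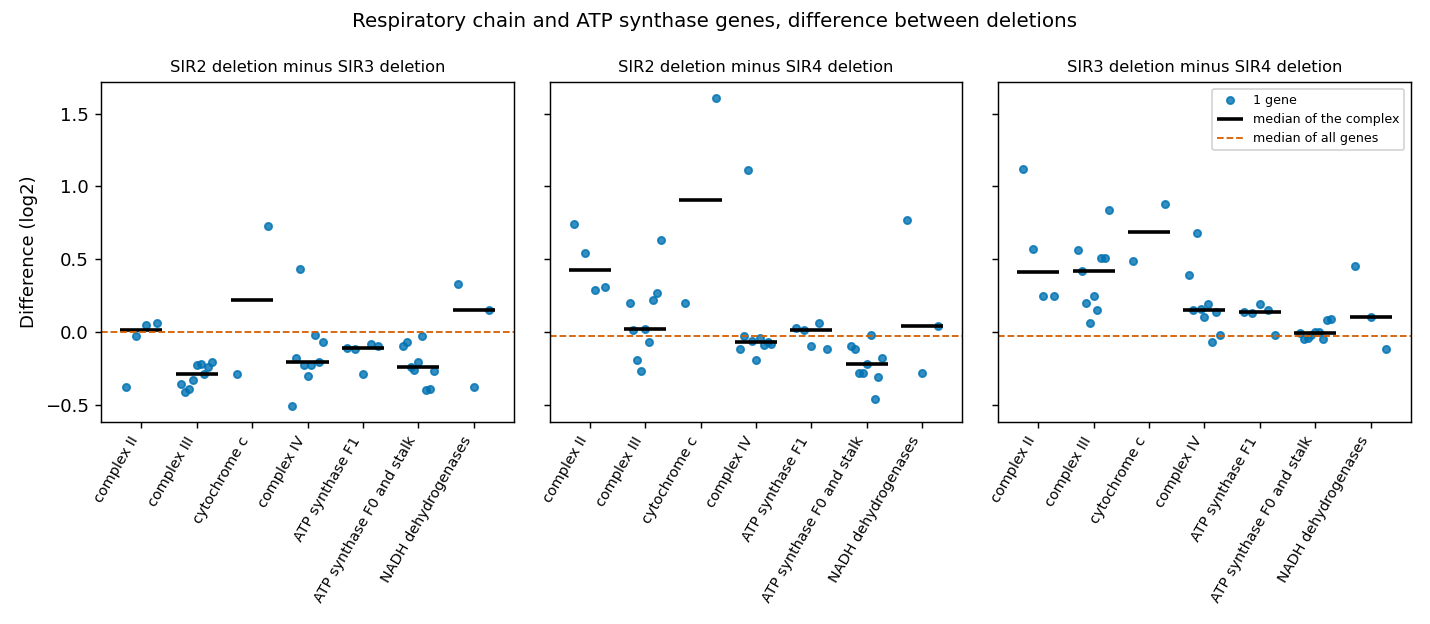
Difference in log2 units between pairs of deletions for each gene, by complex, with the SIR2 minus the SIR3 deletion (left), the SIR2 minus the SIR4 deletion (middle) and the SIR3 minus the SIR4 deletion (right). Points are genes, black bars are medians of a complex and the dashed line is the median of all genes, and CYC7 at 1.61 and COX5B at 1.11 stand highest in the middle panel.

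Genes that assemble or supply the chain were described beside its subunits. None of the 24 measured genes for assembly of complex IV or expression of its core was called in any deletion, and the 3 medians were 0.04 with SIR2 deleted, -0.04 with SIR3 deleted and -0.07 with SIR4 deleted. In these deletions 1.45%, 0.734% and 0.349% of all genes were called higher and 1.41%, 1.67% and 1.1% lower. At these shares, no call in a list of 24 or 12 genes is near background. COX19, a gene needed for assembly of the oxidase, had the largest mean difference, with 0.32, 0.65 and 0.37, and PET117 the lowest, with 0.00, -0.40 and -0.39. None of the 12 assembly genes of complex III and cytochrome c was called, with medians of -0.13, -0.06 and -0.02. CYC3, the cytochrome c heme lyase gene, had the largest mean difference of these, with 0.19, 0.56 and 0.21, and QRI5, which is better known for expression of a complex IV subunit, the lowest, with -0.33, -0.42 and -0.23. The medians of both lists thus lay nearer to those of all genes than the medians of the 41 subunit genes did, and with 1 array per strain this difference between lists was not tested.

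Of the 6 measured assembly genes and paralogs of complex II, 1 was called, and it was lower in all 3 deletions, against 0.771% of all genes. SHH3, a paralog of SDH3, had levels of 4.98, 5.12 and 5.24 in the deletions of SIR2, SIR3 and SIR4, against 6.75 in wild type, or -1.78, -1.63 and -1.52. The deletion levels were close to background, at 4.32, 4.39 and 4.28 on the same arrays, so the size of these differences is uncertain. SDH6, an assembly factor, had the largest mean difference over the 3 deletions, with 0.96, 0.30 and 0.19, and the list medians were 0.44, 0.12 and 0.04.

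Of the 10 assembly and inhibitor genes of the ATP synthase, 1 was called higher in the SIR2 deletion, against 1.45% of all genes. In the SIR3 deletion 1 was called higher, against 0.734%. INH1, which encodes the inhibitor of ATP hydrolysis by the enzyme, had levels of 10.11, 10.83 and 10.23 in the deletions of SIR2, SIR3 and SIR4, against 9.44 in wild type, and was called in the SIR3 deletion at 1.39. STF1, a related inhibitor that stabilises its binding, had 9.58, 9.03 and 8.34, against 8.40, and was called in the SIR2 deletion at 1.18. INH1 was thus highest in the SIR3 deletion, like complex III, and STF1 in the SIR2 deletion, like CYC7 and NDI1. INA22 had the lowest mean difference of this list, with -0.46, -0.01 and -0.40.

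Of all genes, 1.45%, 0.734% and 0.349% were called higher in the deletions of SIR2, SIR3 and SIR4, and 1.41%, 1.67% and 1.1% lower. At these shares, no call in a list of 8 or 9 genes is near background. None of 9 ubiquinone synthesis genes was called, with medians of 0.22, 0.11 and -0.03 in the deletions of SIR2, SIR3 and SIR4 and COQ4 at 0.77, 0.57 and 0.04. COQ3 had the lowest mean difference of these, with -0.02, 0.11 and -0.16. None of 8 heme synthesis genes was called, with medians of 0.06, 0.05 and -0.02, HEM2 at 0.41, 0.11 and 0.05 and HEM13 at -0.53, -0.53 and -0.26. None of 8 genes for electron donors and for carriers of ADP and phosphate was called, with medians of 0.11, 0.13 and -0.01. GUT2, the mitochondrial glycerol-3-phosphate dehydrogenase gene, had 0.67, 0.26 and 0.14 and the lactate dehydrogenase gene CYB2 -0.33, -0.33 and -0.06. These lists had their lowest medians in the SIR4 deletion, where the median of the 41 respiratory genes was 0.28.

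Among the 5 HAP regulators HAP4 was the 1 gene called, in the SIR3 deletion, against 0.734% of all genes called higher there. It had levels of 9.82, 11.48 and 9.82 in the deletions of SIR2, SIR3 and SIR4, against 9.20 in wild type, and so was highest in the strain in which most members were highest. All 9 complex III genes were highest there too. HAP4 was 0.61 above wild type in both the SIR2 and the SIR4 deletion, where complex III had medians of 0.52 and 0.42. The part of HAP4 in the result was not tested. HAP1, HAP2, HAP3 and HAP5 stayed between -0.24 and 0.21 in the 3 deletions.

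The list of hypoxic genes contains CYC7 and COX5B among its 9 genes. It also holds the repressor ROX1 and the aerobic gene HYP2, so its medians and counts are not those of hypoxic genes alone. The list medians were 0.15, -0.16 and -0.26 in the deletions of SIR2, SIR3 and SIR4, and 7, 4 and 3 of the 9 were above wild type there, beside 49.5%, 48.3% and 58.1% of all genes. The SIR2 deletion was the highest array for 5 of the 9, against 30.6% of all genes. These included CYC7 and COX5B, and also the aerobic HYP2. ROX1, the repressor of hypoxic genes, had levels of 9.87, 10.32 and 9.67, against 9.08 in wild type, and was called in the SIR3 deletion at 1.24. The cell wall gene TIR1 was called lower there at -1.11, with 0.46 where SIR2 was deleted and 0.53 where SIR4 was. ANB1, a hypoxic translation factor gene, had the lowest mean difference, with 0.04, -0.86 and -0.81. HYP2, its aerobic counterpart on the same list, had 0.05, 0.02 and -0.05.

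The citric acid cycle feeds the chain with NADH and, through complex II, with electrons from succinate. Its 16 measured genes had medians of 0.44, 0.28 and 0.04 in the deletions of SIR2, SIR3 and SIR4. Of these, 12 of 16 were highest in the SIR2 deletion, where 5 of the 41 respiratory genes and 30.6% of all genes were highest. The citrate synthase gene CIT1 had 1.33, 1.11 and 0.21 and was called with SIR2 or SIR3 deleted. The peroxisomal isoform CIT2 had 1.04, -0.05 and 0.01 and was called in the SIR2 deletion. Thus 2 of 16 were called higher in the SIR2 deletion, against 1.45% of all genes, and 1 in the SIR3 deletion, against 0.734%. IDH2 had the lowest mean difference, with 0.47, 0.02 and -0.37. In the SIR4 deletion 9 of 16 citric acid cycle genes were above wild type, a share near the 58.1% of all genes. The 67 measured genes of mitochondrial ribosomal proteins had medians of -0.14, -0.02 and -0.03 in the deletions of SIR2, SIR3 and SIR4. In these 16, 28 and 27 of them were above wild type, or 23.9%, 41.8% and 40.3%, against 49.5%, 48.3% and 58.1% of all genes. None of the 67 was called, where 1.45%, 0.734% and 0.349% of all genes were called higher and 1.41%, 1.67% and 1.1% lower. RSM7 had the largest mean difference of these, with 0.41, 0.26 and 0.29, and MRPL38 the lowest, with -0.36, -0.15 and -0.20.

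**Figure D5:**
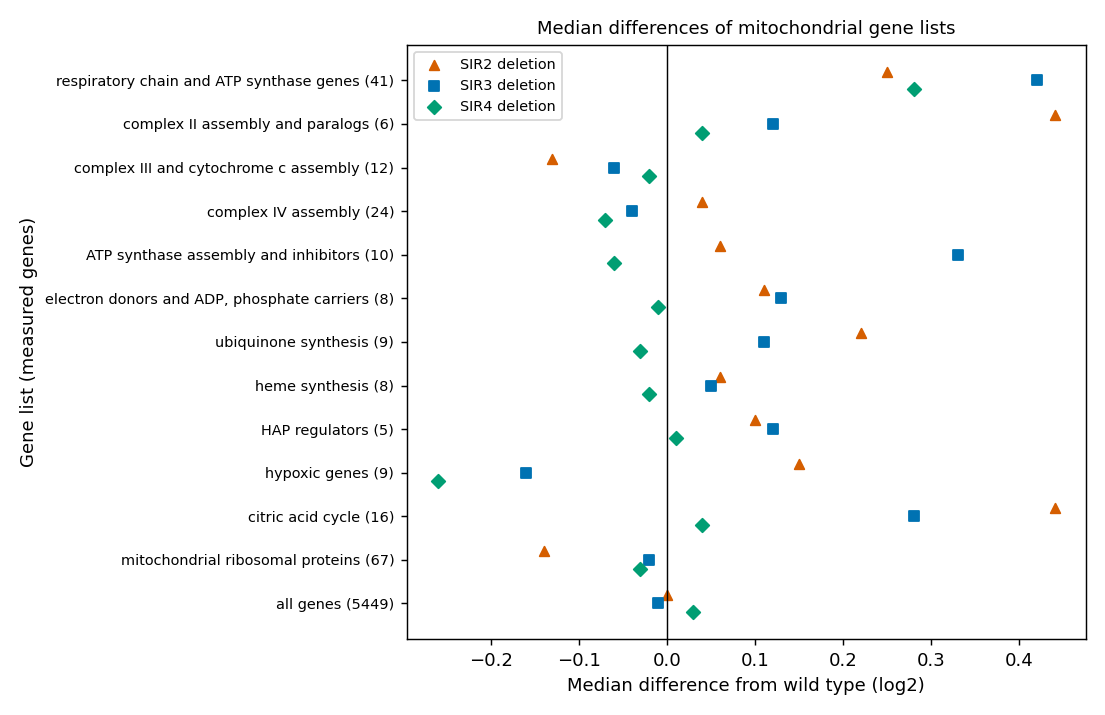
Median difference from wild type in log2 units for the 41 respiratory genes, for related lists and for all genes, with 1 symbol per deletion and the number of measured genes in brackets. The 41 genes have medians of 0.25, 0.42 and 0.28 in the deletions of SIR2, SIR3 and SIR4, and in the SIR4 deletion no other list exceeds 0.04.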

How the data were processed

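Per the submitters' processing notes, RMA produced the deposited levels, which are on the log2 scale with 1 value per probe set and array. This method subtracts background, forces a common distribution on the arrays and combines probes into probe sets, so a shift of most genes in 1 direction would not be visible. For its version and parameters, the sources used here give nothing.

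Of 10928 probe sets, 5498 had an Entrez identifier found in the R64 reference table and stood for 5449 genes, with the brightest probe set representing each of 47 genes that had several. Background was the 95th percentile of 1746 probe sets for a different yeast. Differences, medians and counts past 2-fold were computed with Python 3.11.15 and pandas 2.3.3, and were checked on simulated arrays. No test was run, because each strain had 1 array, whose number limits the precision. Alternatives were limits of 1.5-fold and 3-fold, 2 scalings, 2 treatments of low values and 2 of probe sets. Strains were grouped by their labels.

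The members, lists and limits were chosen with earlier results of these data known. All members could be named, and from each related list the genes called in any deletion and those with the largest and smallest mean difference. HAP4 was always named. Sequences, gene coordinates and 7 mitochondrially encoded subunits were not analysed here.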

Additional observations from a re-analysis of the deposited data

How the results depend on the processing

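No paired analysis was possible because each strain had 1 array. Medians were taken as moved where they shifted by 0.1 or more. Under the alternative scalings, treatments of low values and treatments of probe sets, 360 medians of complexes and lists shifted by at most 0.111, and 1 moved, that of the 2 cytochrome c genes in the SIR3 deletion, to 1.04 after repeated quantile normalization. The same scaling placed CYC7 above the limit there, at 1.15, and NDI1 in the SIR2 deletion, at 1.02. With it, 2 members were called higher at 2-fold in the SIR3 than in the SIR4 deletion. Before it, 1 was, beside 0.496% of all genes. The number of members with wild type lowest was 35 to 37 and with the SIR3 deletion highest 26 to 33 over all scalings, and 36 to 38 members were above wild type in the SIR2 deletion.

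The limit set the counts. At 1.5-fold 10, 13 and 1 members were higher than wild type in the SIR2, SIR3 and SIR4 deletions, beside 5.41%, 2.72% and 1.41% of all genes. At that limit 1 was lower in each of the SIR3 and SIR4 deletions, beside 3.78% and 2.09%. The 1 member higher in all 3 stood beside 0.624% of all genes. Between deletions 1, 5 and 4 were higher in the SIR2 over the SIR3, the SIR2 over the SIR4 and the SIR3 over the SIR4 deletion. The shares of all genes at 1.5-fold were 3.32%, 4.48% and 2.11% in these pairs. At 3-fold CYC7 alone was higher, 1 in the SIR2 deletion against wild type, beside 0.514% of all genes, and 1 against the SIR4 deletion, beside 0.257%. In the SIR3 deletion 0 were higher than wild type, beside 0.275%, and 0 than the SIR4 deletion, beside 0.0918%. Leaving out 1 deletion in turn gave 0 to 2 members higher in both others, with SDH1 and CYT1 where the SIR4 deletion was left out, beside 0.496% of all genes, and 0 where the SIR2 or the SIR3 deletion was, beside 0.22% and 0.294%. Signal was 0.44 to 1.26 above background for NDE2, so its differences have little room below.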
